A study of Mus musculus with 371 samples.

Results

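Cd28, Icos and Ctla4 encode CD28, ICOS and CTLA-4, receptors of 1 family on T cells, and their transcripts were followed through single T cells sorted from mouse tumours. The tumours were B16F10, a transplantable melanoma line of the C57BL/6 strain, and the mice were labelled as lacking Il27ra, the IL-27 receptor alpha chain gene (KO), or as wild type (WT). The question of the study, per its design text, was which genes in T cells of the tumour depend on IL-27. The 3 genes were taken by symbol from the 23362 genes of the authors' table. Values were read in the 350 cells in which no fewer than 1000 genes reached 1 FPKM. FPKM are fragments per kilobase of transcript, scaled to the size of the library, and the authors adjusted them between cells by the TMM method.

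The KO CD8 sort kept 86 of 90 cells and the WT CD8 sort 90 of 94. The KO CD4 sort kept 89 of 93 cells and the WT CD4 sort 85 of 94. CD4 cells were taken apart at 1 FPKM of Foxp3, whose product directs regulatory T cells: 35 KO and 46 WT cells were Foxp3+, and 54 KO and 39 WT cells were Foxp3-. That gave 6 classes of cells. The titles of a sort and genotype share 1 animal word, and both sorts of a genotype carry the same number, KO3 or WT3. The labels explain neither, so the cells of each sort and genotype were taken here as 1 pool. Genotype and pool then cannot be told apart, and no test between groups was possible. Each share of cells is given with its exact (Clopper-Pearson) 95% interval, for counting error only, and SDs describe the spread over cells of 1 pool. The labels name no age, sex or number of mice, and the protocol text speaks of CD8+ cells alone, so the CD4 sort rests on the sample titles.

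CD28 is the main co-stimulatory receptor of naive T cells. It binds CD80 and CD86 on antigen-presenting cells and lowers the threshold for activation by the T cell receptor. CTLA-4 binds the same ligands with higher affinity and restrains the response, and it is held at high levels by regulatory T cells, which use it to strip CD80 and CD86 from antigen-presenting cells. ICOS binds a ligand of its own, ICOSL, and is induced after activation. It supports follicular helper and regulatory T cells. The cytoplasmic tails of CD28 and ICOS recruit phosphatidylinositol 3-kinase, and that of CTLA-4 holds the site by which the clathrin adaptor complexes pull it from the surface into the cell.

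The 3 genes lie in a row on the plus strand of mouse chromosome 1. In GENCODE M21 on mm10, Cd28 (ENSMUSG00000026012.2) spans chr1:60716800-60773359, Ctla4 (ENSMUSG00000026011.13) spans chr1:60887000-60915832 and Icos (ENSMUSG00000026009.14) spans chr1:60977927-61000320. The main transcript of Ctla4 starts 162.67 kb after that of Cd28, and that of Icos 231.57 kb after it. These transcripts are 4347 nucleotides in 4 exons for Cd28, 3241 in 5 exons for Icos, and 1933 in 4 exons for Ctla4.

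The stretches of coding sequence below show where the receptors part ways. Each is 30 bases of the main transcript from GENCODE M21, 5′ to 3′ on the plus strand. In the ligand-binding loop, in exon 2 of each gene, capitals mark the codons of MYPPPY in Cd28 (chr1:60763269-60763298) and Ctla4 (chr1:60912707-60912736), the loop that touches CD80 and CD86, and of FDPPPF in Icos (chr1:60993977-60994006).
Cd28 loop: gagttcATGTACCCTCCGCCTTACctagac
Ctla4 loop: gaactcATGTACCCACCGCCATACtttgtg
Icos loop: tccattTTTGACCCACCTCCTTTTcaagaa
Of the 18 capital bases, Ctla4 and Cd28 shared 16, while Icos and Cd28 shared 11, as did Icos and Ctla4.

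The tail motifs sort the genes another way. In exon 4 of each gene, capitals mark the codons of YMNM in Cd28 (chr1:60769684-60769713) and YMFM in Icos (chr1:60995551-60995580), which bind phosphatidylinositol 3-kinase once phosphorylated, and of YVKM in Ctla4 (chr1:60914637-60914666), which the clathrin adaptors bind.
Cd28 tail: caaagtgacTACATGAACATGactccccgg
Icos tail: aatagtgaaTACATGTTCATGgcggcagtc
Ctla4 tail: acaggggtcTATGTGAAAATGcccccaaca
Of the 12 capital bases, Icos and Cd28 shared 10, Ctla4 and Cd28 shared 9, and Icos and Ctla4 shared 7. The loop thus groups CTLA-4 with CD28. The tail sets ICOS nearest to CD28 only by a narrow margin, 10 against 9 of 12 bases.

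The depth of the libraries was read from the values. The step that 1 read makes put the classes at 463283 to 574349 counted fragments per median cell, where 1 read is worth 0.467 FPKM of Cd28, 0.626 of Icos and 1.05 of Ctla4. The median cell held 1955 genes in KO CD8 and 2148 in WT CD8, 2152 in KO and 1884 in WT Foxp3+ CD4, and 1747 in KO and 1547 in WT Foxp3- CD4 cells. Il27ra itself was found in 53.5% of KO and 51.1% of WT CD8 cells, and in 50.6% of KO and 50.6% of WT CD4 cells. A value over all exons cannot show whether a deleted part was read, so KO and WT below are the genotypes of the labels. Cd4 was found in 0 of 86 KO and 0 of 90 WT CD8 cells, where a count of 0 still permits 3.49% and 3.33%, and in 83.3% to 94.3% of the CD4 classes. Cd8b1 was found in 91.9% and 86.7% of KO and WT CD8 cells, and in 18.5% to 26.1% of the CD4 classes, where 2 to 4 cells a class had Cd8a or Cd8b1 at 10 FPKM or above.

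Some cells stood apart. A KO Foxp3- CD4 cell held 607967 FPKM of the haemoglobin gene Hba-a1 and 10434 FPKM of Alas2, a haem synthesis enzyme of red cells, and its values summed to 1787860 FPKM. Its 679 FPKM of Cd4 came with 520.2 FPKM of Cd28, 828 FPKM of Icos and no Ctla4, and no value in these classes moved past its interval or by 1.5 times without it. Among KO CD8 cells, 4 carried Foxp3, against 0 of 90 WT CD8 cells (up to 3.33%). The summed level of the 5 melanoma markers had class medians of 4.67 to 7.81 FPKM, and leaving out all cells with a marker of another cell type at 10 FPKM or above kept 40 of 86 KO and 47 of 90 WT CD8 cells, 20 of 35 and 23 of 46 Foxp3+ cells, and 26 of 54 and 19 of 39 Foxp3- cells. Some differences are also given without these cells. Among CD8 cells, melanoma markers reached 10 FPKM in 24 KO and 30 WT cells. Pecam1 was the only endothelial marker found there, at 10 FPKM or above in 12 KO and 9 WT cells. The source of these transcripts was not tested.

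Ctla4 was the transcript that separated the classes most. In Foxp3+ CD4 cells its lowest, median and highest values were 143.7, 1649 and 4885 FPKM in KO cells and 0, 1176 and 4809 FPKM in WT cells. In Foxp3- CD4 cells they were 0, 0 and 2867 FPKM in KO and 0, 0 and 2430 FPKM in WT cells. In CD8 cells they were 0, 0 and 2997 FPKM in KO and 0, 0 and 1791 FPKM in WT cells. The ranges overlapped between all classes, since single cells of every class reached 1000 FPKM, but the median cell had Ctla4 in the Foxp3+ classes and not in the other 4 classes.

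The share of cells with Ctla4 at 1 FPKM or above was 100% of KO Foxp3+ cells (35 of 35, interval 89.997% to 100%) and 87.0% of WT Foxp3+ cells (40 of 46, 73.7% to 95.1%). It was 40.7% of KO (22 of 54, 27.6% to 54.97%) and 46.2% of WT Foxp3- cells (18 of 39, 30.1% to 62.8%). In CD8 cells it was 47.7% of KO (41 of 86, 36.8% to 58.7%) and 46.7% of WT cells (42 of 90, 36.1% to 57.5%). The intervals of the CD8 and Foxp3- classes overlapped one another and lay below those of the Foxp3+ classes. The mean level was 1809 ± 1170.5 FPKM (SD over cells) in KO and 1355 ± 1168 FPKM in WT Foxp3+ cells. It was 205.4 ± 493 in KO and 238.8 ± 488 FPKM in WT Foxp3- cells, and 234.4 ± 532 in KO and 163.9 ± 313.4 FPKM in WT CD8 cells. Those 4 means lie closer to each other than 1 SD of any of them. Where Ctla4 was found at all, its median was 1649 FPKM in KO and 1249 FPKM in WT Foxp3+ cells, 292.1 and 307.3 FPKM in KO and WT Foxp3- cells, and 238.3 and 268.96 FPKM in KO and WT CD8 cells.

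**Figure D1:**
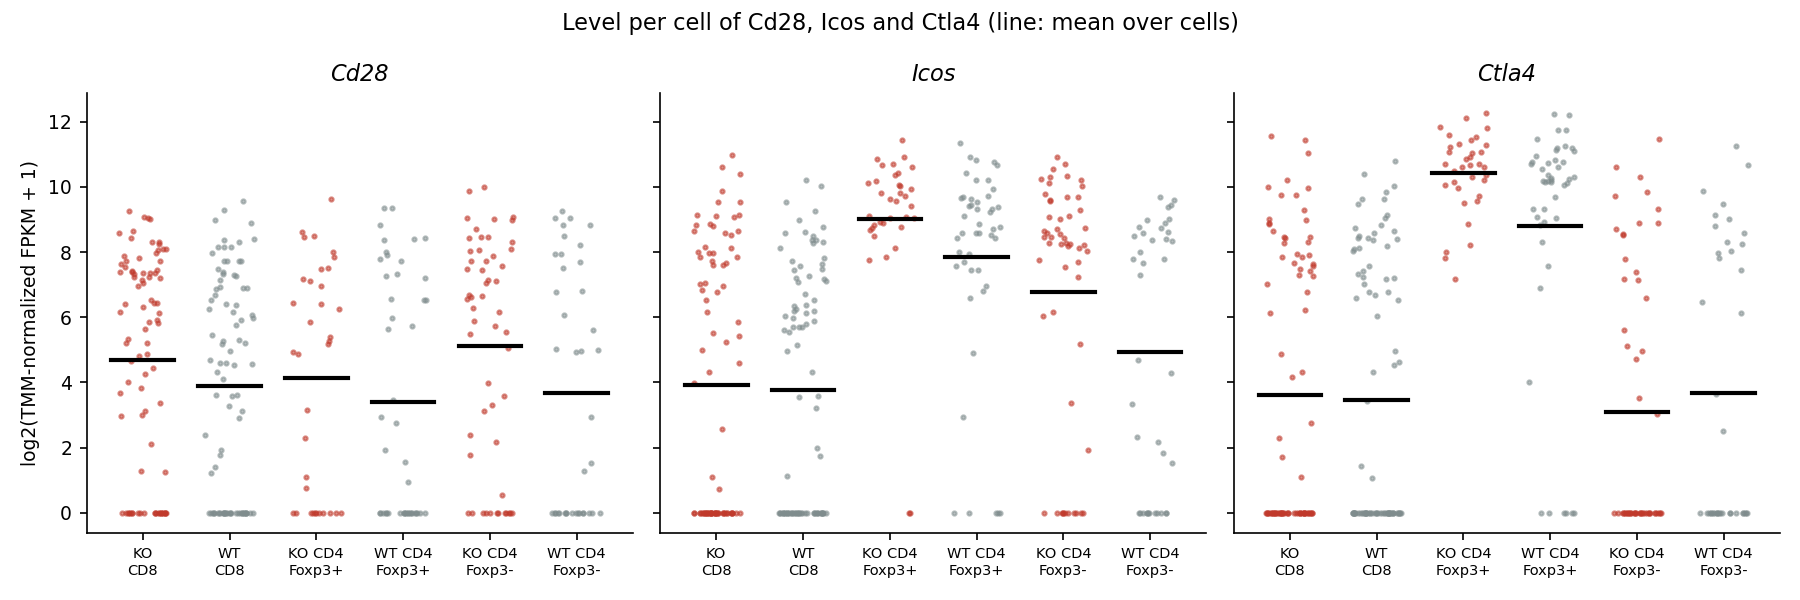
Level of Cd28, Icos and Ctla4 in each of the 350 cells, as log2(TMM-normalized FPKM + 1) on the vertical axis, in the 6 classes along the horizontal axis (red KO, grey WT). Each point is 1 cell and the black line is the mean over cells; the Ctla4 points of Foxp3+ cells sit together at the top, with means of 10.43 in KO and 8.79 in WT cells, while in the other classes they split between 0 and high values.

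Icos followed a graded order, highest in Foxp3+ CD4 cells, then in Foxp3- CD4 cells, and lowest in CD8 cells. Its lowest, median and highest values were 0, 765 and 2789.85 FPKM in KO and 0, 423 and 2619 FPKM in WT Foxp3+ cells. They were 0, 309.6 and 1944 FPKM in KO and 0, 155.1 and 834 FPKM in WT Foxp3- cells. In CD8 cells they were 0, 9.82 and 2002 FPKM in KO and 0, 15.1 and 1191 FPKM in WT cells. All classes overlapped in range, and the order held for the medians in each genotype.

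Icos was found in 94.3% of KO (33 of 35, 80.8% to 99.3%) and 89.1% of WT Foxp3+ cells (41 of 46, 76.4% to 96.4%). It was found in 79.6% of KO (43 of 54, 66.5% to 89.4%) and 69.2% of WT Foxp3- cells (27 of 39, 52.4% to 82.98%), and in 52.3% of KO (45 of 86, 41.3% to 63.2%) and 56.7% of WT CD8 cells (51 of 90, 45.8% to 67.1%). Within a genotype, neighbours in this order had overlapping intervals, except KO Foxp3- and KO CD8 cells. Mean levels were 867 ± 612 and 609.6 ± 592 FPKM in KO and WT Foxp3+ cells, 460.0 ± 484 and 220.1 ± 253.9 FPKM in KO and WT Foxp3- cells, and 187.4 ± 351.2 and 115.15 ± 212.1 FPKM in KO and WT CD8 cells. In KO cells, Icos was past 1000 FPKM in 12 Foxp3+, 9 Foxp3- and 3 CD8 cells. In WT cells it was so in 8 Foxp3+, 0 Foxp3- and 2 CD8 cells.

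Cd28 was the flattest of the 3 transcripts. Its lowest, median and highest values were 0, 84.5 and 1014 FPKM in KO and 0, 6.64 and 609 FPKM in WT Foxp3- CD4 cells. In CD8 cells they were 0, 56.4 and 613 FPKM in KO and 0, 22.6 and 763 FPKM in WT cells, and in Foxp3+ CD4 cells 0, 35.1 and 789 FPKM in KO and 0, 2.385 and 654 FPKM in WT cells. The class means all lay between 87.998 and 167.7 FPKM, within 1 SD (143.6 to 225.8 FPKM) of each other. The mean was 167.7 ± 225.8 and 117.2 ± 181.5 FPKM in KO and WT Foxp3- cells, 114.4 ± 143.6 and 87.998 ± 144.1 FPKM in KO and WT CD8 cells, and 103.8 ± 164.6 and 100.6 ± 167.2 FPKM in KO and WT Foxp3+ cells.

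The share of cells with Cd28 was 75.9% of KO (41 of 54, 62.4% to 86.5%) and 56.4% of WT Foxp3- cells (22 of 39, 39.6% to 72.2%). It was 73.3% of KO (63 of 86, 62.6% to 82.2%) and 65.6% of WT CD8 cells (59 of 90, 54.8% to 75.3%), and 65.7% of KO (23 of 35, 47.8% to 80.9%) and 52.2% of WT Foxp3+ cells (24 of 46, 36.9% to 67.1%). In all 3 pairs the KO share was the higher one, and in all 3 the intervals overlapped. In cells with the transcript, its median lay between 75.02 and 149.3 FPKM in every class, so that the receptor known from all T cells was read in 52.2% to 75.9% of cells at levels far below those of Ctla4 in Foxp3+ cells.

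**Figure D2:**
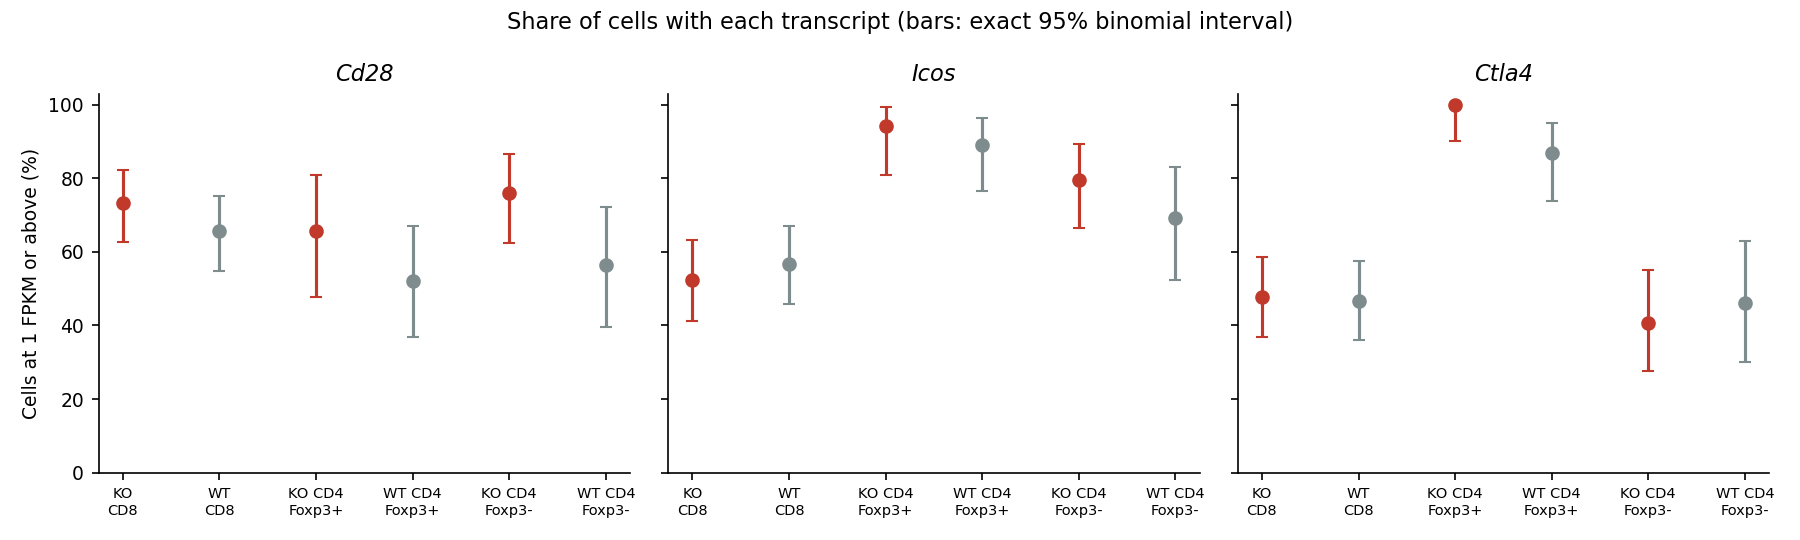
Share of cells (%) with Cd28, Icos and Ctla4 at 1 FPKM or above in the 6 classes (red KO, grey WT); bars are exact 95% binomial intervals, for counting error only. The shares of Ctla4 in Foxp3+ cells (100% in KO and 87.0% in WT) stand above all others for that gene, Icos steps down from Foxp3+ to CD8 cells, and the intervals of Cd28 overlap throughout.

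Between KO and WT CD8 cells, none of the 3 genes differed by the size used here, 1 or more in mean log2(FPKM + 1), a scale that understates the change of low genes. Cd28 was higher by 0.79 in KO CD8 cells, and passed 1 in 3 of 9 alternatives, with 1.05 at most (mean log2 of 4.68 ± 3.31 in KO and 3.89 ± 3.31 in WT cells, SD over cells). Icos differed by 0.16 (3.91 ± 4.03 and 3.75 ± 3.64) and Ctla4 by 0.14 (3.61 ± 4.17 and 3.47 ± 4.01). Of 4686 genes measured in at least 20% of either group, 0.555% were higher by 1 or more in KO CD8 cells and 13.3% lower, with a median of -0.40. Against that median all 3 members lay on the high side, Cd28 at the percentile 98.8 of measured genes, Icos at 87.6 and Ctla4 at 86.8. When cells were weighted so that both groups matched in detected genes, the difference of Ctla4 was 1.28.

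The KO CD8 values of Icos and Ctla4 leaned on the 4 cells with Foxp3. Those cells had 9.83, 222.7, 359.7 and 1370.0 FPKM of Foxp3. The 3 with the most Foxp3 held 2128 to 2997 FPKM of Ctla4 and 567 to 2002 FPKM of Icos, values of the kind seen in Foxp3+ CD4 cells, and the remaining cell held 19.2 FPKM of Ctla4 and 250.05 FPKM of Icos. All 4 had Cd8a or Cd8b1 and none had Cd4. They carried 39.3% of all Ctla4, 27.3% of all Icos and 8.89% of all Cd28 FPKM summed over KO CD8 cells. In the 82 KO CD8 cells without Foxp3, Ctla4 averaged 149.2 ± 265.1 FPKM, against 163.9 ± 313.4 FPKM in WT CD8 cells, and the differences became -0.15 for Ctla4 and -0.12 for Icos. Cd28 remained higher in KO CD8 cells, by 0.66.

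In Foxp3+ CD4 cells, Ctla4 and Icos were higher in KO than in WT cells. Ctla4 differed by 1.64 (10.43 ± 1.22 in KO and 8.79 ± 3.72 in WT cells), Icos by 1.18 (9.02 ± 2.43 and 7.84 ± 3.16) and Cd28 by 0.75 (4.15 ± 3.44 and 3.40 ± 3.66). KO Foxp3+ cells had more detected genes, and 21.5% of 4894 measured genes were higher there by 1 or more and 2.31% lower, so values of this size were common. The difference of Ctla4 had the percentile 93.7 of measured genes, that of Icos 84.5 and that of Cd28 67.7. When cells were weighted so that both groups matched in detected genes, Icos differed by 0.14 and Cd28 by 0.048. Without cells that carried other cells' markers, Cd28 differed by 1.45. On the scale of mean FPKM, KO over WT was 1.34 for Ctla4, 1.42 for Icos and 1.03 for Cd28.

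The wider spread of Ctla4 in WT Foxp3+ cells came from 6 cells where it was not found, against 0 in KO Foxp3+ cells. The 6 cells had a median of 1284.5 genes and 109.1 FPKM of Foxp3, while the 40 WT cells with Ctla4 had medians of 1892 genes and 525 FPKM of Foxp3. Of the 6, 5 had Il2ra, the high-affinity IL-2 receptor chain, and 4 had Ikzf2, which encodes Helios, so they carried other transcripts of regulatory T cells. Among cells with Ctla4, KO and WT Foxp3+ cells differed by 0.32. Among cells with at least 2000 genes the difference over all Foxp3+ cells was 0.65, from 21 KO and 19 WT cells.

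In Foxp3- CD4 cells, Icos and Cd28 were higher in KO cells and Ctla4 was not. Icos differed by 1.84 (6.77 ± 3.81 in KO and 4.93 ± 3.998 in WT cells), the percentile 98.1 of measured genes, and KO over WT in mean FPKM was 2.09. Cd28 differed by 1.45 (5.13 ± 3.44 and 3.69 ± 3.73, percentile 94.7) and Ctla4 by -0.57 (3.11 ± 4.06 and 3.68 ± 4.28, percentile 10.9). Of 3426 measured genes, 13.5% were higher by 1 or more in KO cells and 3.15% lower. Without cells that carried other cells' markers, Icos differed by 0.67, Cd28 by 0.035 and Ctla4 by -0.021, and the WT shares there were 89.5% for Icos and 78.9% for Cd28. The part of those cells in the 2 differences was not tested. Ctla4 differed by 1.46 among cells with at least 2000 genes, where 16 KO and 6 WT cells remained, and kept its sign in the other 10 of 11 alternatives.

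Over the whole CD4 sort, the differences were 1.21 for Cd28, 1.15 for Icos and -0.46 for Ctla4, against a background of 9.91% of 3864 measured genes higher by 1 or more and 0.983% lower. The Ctla4 value of the whole sort mixes 2 opposite values, since Foxp3+ cells were 35 of 89 kept KO and 46 of 85 kept WT CD4 cells. Ctla4 was found in 64.04% of KO and 68.2% of WT CD4 cells at means of 836 and 843 FPKM. Without cells that carried other cells' markers, its difference was 0.34 and that of Icos 0.62.

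Set against Foxp3- cells of the same pool, Foxp3+ cells had more Ctla4 by 7.32 in KO and 5.12 in WT, and more Icos by 2.26 in KO and 2.91 in WT. Cd28 went the other way, by -0.98 in KO and -0.28 in WT. On mean FPKM, Foxp3+ over Foxp3- was 8.81 and 5.67 for Ctla4 in KO and WT, 1.88 and 2.77 for Icos, and 0.619 and 0.858 for Cd28. In KO cells 30% of 4849 measured genes were higher by 1 or more in Foxp3+ cells and 2.35% lower. In WT cells 23.9% of 3850 were higher and 4.81% lower. Ctla4 had the percentile 99.96 in KO and 99.8 in WT, Icos 95.5 and 98.4, and Cd28 2.45 and 18.03, so that Cd28 lay in the low part of a distribution whose medians were 0.60 in KO and 0.42 in WT.

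All 11 alternatives in KO and all 10 in WT kept Ctla4 and Icos higher in Foxp3+ cells, with ranges of 3.13 to 9.30 and 2.50 to 6.48 for Ctla4 and of 0.91 to 2.89 and 1.41 to 3.61 for Icos. The low ends of Ctla4 are log2 ratios of mean FPKM. For Cd28 the sign in KO held in all 11, from -1.98 to -0.64, and in WT in 9 of 10, turning to 1.06 among cells with at least 2000 genes. Without cells that carried other cells' markers, Cd28 differed by -2.12 in WT, and Icos by 1.65 in KO and 1.41 in WT. Foxp3- cells may include cells whose Foxp3 was missed, so a narrower class without Il2ra and Ikzf2 was also taken. Ctla4 was found in 35.6% of its 45 KO and 41.2% of its 34 WT cells.

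Foxp3- CD4 cells differed from CD8 cells of the same genotype in Icos, which was higher by 2.85 in KO and 1.17 in WT. The difference of Cd28 was 0.45 in KO and -0.21 in WT, and that of Ctla4 -0.50 in KO and 0.21 in WT. In KO, 3.86% of 3679 measured genes were higher by 1 or more in Foxp3- CD4 cells and 8.45% lower. In WT, 0.875% of 4687 were higher and 35.2% lower, with a median of -0.73. Icos had the percentiles 99.8 and 99.3 in KO and WT. It stayed higher in all 12 alternatives in KO (1.29 to 3.74) and in all 11 in WT, where the low end was 0.055 among cells with at least 2000 genes and the high end 2.77 without cells that carried other cells' markers. Cd28 kept its sign in 12 of 12 alternatives in KO and in 8 of 11 in WT, where it reached 1.17 without marker-bearing cells. Ctla4 kept its sign in 10 of 12 in KO, with 1.04 among cells with at least 2000 genes and 0.15 without marker-bearing cells, and in 8 of 11 in WT, with -0.47 among cells with at least 2000 genes. Sort and the last part of the sample titles, p1 in CD8 and p2 in CD4 cells, cannot be told apart in this comparison.

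The 3 transcripts were also read together in each cell, since CD28 and CTLA-4 compete for the same ligands. All 3 were found in 65.7% of KO (47.8% to 80.9%) and 45.7% of WT Foxp3+ cells (30.9% to 60.99%), in 31.5% of KO (19.5% to 45.6%) and 17.9% of WT Foxp3- cells (7.54% to 33.5%), and in 37.2% of KO (27.02% to 48.3%) and 31.1% of WT CD8 cells (21.8% to 41.7%). None of the 3 was found in 0 of 35 KO and 2 of 46 WT Foxp3+ cells, in 5 of 54 KO and 6 of 39 WT Foxp3- cells, and in 14 of 86 KO and 18 of 90 WT CD8 cells. Each class had its own leading pattern beside the triple one. Icos with Ctla4 but without Cd28 was found in 28.6% of KO and 34.8% of WT Foxp3+ cells, and Icos with Cd28 but without Ctla4 in 33.3% of KO and 25.6% of WT Foxp3- cells. In CD8 cells, Cd28 alone was found in 22.1% of KO and 10% of WT cells, and Cd28 with Icos in 5.81% of KO and 16.7% of WT cells.

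**Figure D3:**
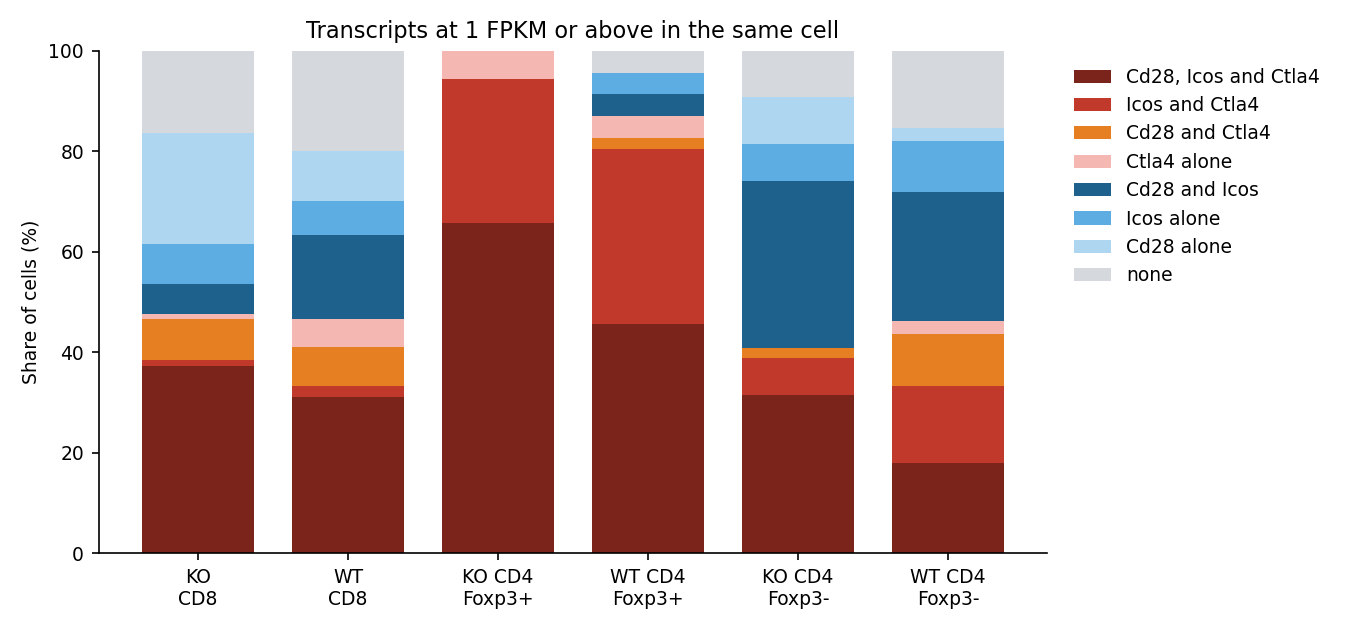
Share of cells (%) in each of the 6 classes with every combination of Cd28, Icos and Ctla4 at 1 FPKM or above; each bar sums to 100%, with combinations that hold Ctla4 in red and orange at the bottom and those without it in blue and grey. Ctla4 combinations fill the KO Foxp3+ bar and 87.0% of the WT Foxp3+ bar, and Cd28 with Icos is the widest blue segment in Foxp3- cells.

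In CD8 cells, Ctla4 came mostly with the other two transcripts. Among CD8 cells with Ctla4, Cd28 was found in 95.1% of KO (39 of 41, 83.5% to 99.4%) and 83.3% of WT cells (35 of 42, 68.6% to 93.03%). Among CD8 cells without Ctla4 it was found in 53.3% of KO (24 of 45, 37.9% to 68.3%) and 50% of WT cells (24 of 48, 35.2% to 64.8%). Icos was found in 80.5% of KO and 71.4% of WT CD8 cells with Ctla4, and in 26.7% of KO and 43.8% of WT CD8 cells without it. The cells with Ctla4 had a median of 2035 genes in KO and 2625.5 in WT, against 1892 and 2024 genes in those without it, and the part of depth in this was not tested. In Foxp3- CD4 cells the contrast was smaller: Cd28 was found in 81.8% of KO and 61.1% of WT cells with Ctla4, and in 71.9% of KO and 52.4% of WT cells without it.

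Per kilobase of transcript, the balance of Ctla4 and Cd28 set Foxp3+ cells apart. The mean of Ctla4 was 17.4 times that of Cd28 in KO and 13.5 times in WT Foxp3+ cells, 1.22 times in KO and 2.04 times in WT Foxp3- cells, and 2.05 times in KO and 1.86 times in WT CD8 cells. Ctla4 made up 94.6% of their summed FPKM in KO and 93.1% in WT Foxp3+ cells, 55.1% in KO and 67.1% in WT Foxp3- cells, and 67.2% in KO and 65.1% in WT CD8 cells. Among cells with both transcripts, Ctla4 was the higher one in 23 of 23 KO and 21 of 22 WT Foxp3+ cells, in 11 of 18 KO and 7 of 11 WT Foxp3- cells, and in 27 of 39 KO and 24 of 35 WT CD8 cells. Transcript levels do not give the protein at the surface, where CTLA-4 is largely internalized.

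**Figure D4:**
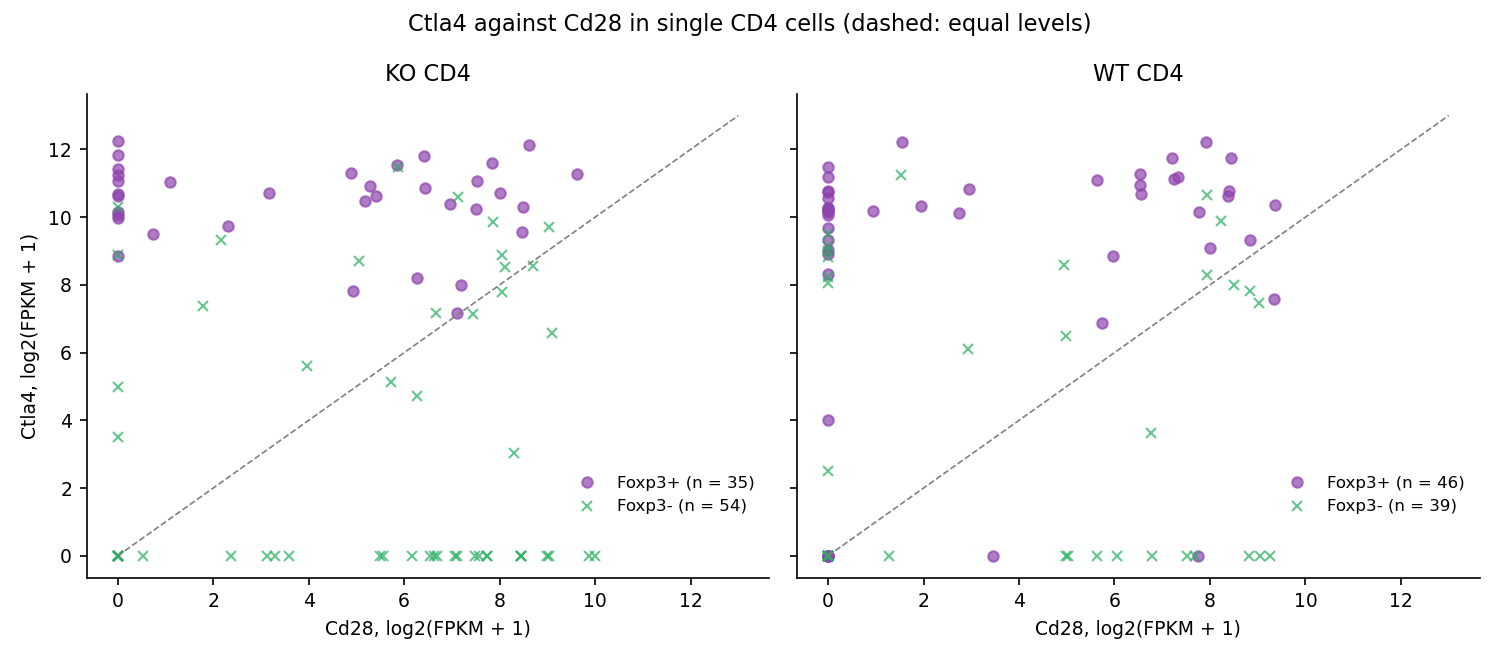
Ctla4 (vertical) against Cd28 (horizontal) in single CD4 cells, both as log2(TMM-normalized FPKM + 1), KO at left and WT at right; purple circles are Foxp3+ cells (35 and 46), green crosses Foxp3- cells (54 and 39), and the dashed line marks equal levels. Of the Foxp3+ cells with both transcripts, 23 of 23 KO and 21 of 22 WT cells lie above the line, while Foxp3- cells lie on both sides and along the lower axis.

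Within CD8 cells, Ctla4 tracked the checkpoint receptors Pdcd1, Havcr2 and Lag3, which encode PD-1, TIM-3 and LAG-3. In cells with none of these, Ctla4 was found in 35.8% of KO (19 of 53, 23.1% to 50.2%) and 19.6% of WT cells (9 of 46, 9.36% to 33.9%). In cells with 1 of them it was found in 56.5% of KO (13 of 23) and 47.1% of WT cells (8 of 17), and in cells with 2 or 3 in 90% of KO (9 of 10, 55.5% to 99.7%) and 92.6% of WT cells (25 of 27, 75.7% to 99.1%). Its mean level over the same steps was 163.05, 260.25 and 553 FPKM in KO and 26.99, 85.02 and 447 FPKM in WT CD8 cells. The KO steps include the CD8 cells with Foxp3, which carried 39.3% of the Ctla4 FPKM summed over KO CD8 cells. Means of the steps without those cells were not taken. The order was the same in both pools, though only 10 KO cells, against 27 WT cells, had 2 or 3 of these receptors. WT cells with 2 or 3 had a median of 3538 genes, against 2028 in WT cells with none. In KO the medians were 2188.5 and 1962 genes.

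Icos and Cd28 were read over the same steps. Icos was found in 43.4% of KO and 41.3% of WT CD8 cells with none of the 3 checkpoint transcripts, and in 10 of 10 KO and 20 of 27 WT cells with 2 or 3. Cd28 was found in 67.9% of KO and 54.3% of WT cells with none, and in 10 of 10 KO and 21 of 27 WT cells with 2 or 3, with overlapping intervals in each pool. Among cells with at least 2000 genes, the share with Ctla4 was 33.3% (8 of 24) in KO and 20.8% (5 of 24) in WT cells with none of the checkpoint transcripts, and 7 of 7 in KO and 24 of 25 in WT cells with 2 or 3. This subset did not even out depth in WT, where the medians were 2181 genes with none and 3552 with 2 or 3. In KO they were 2251.5 and 2403 genes.

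**Figure D5:**
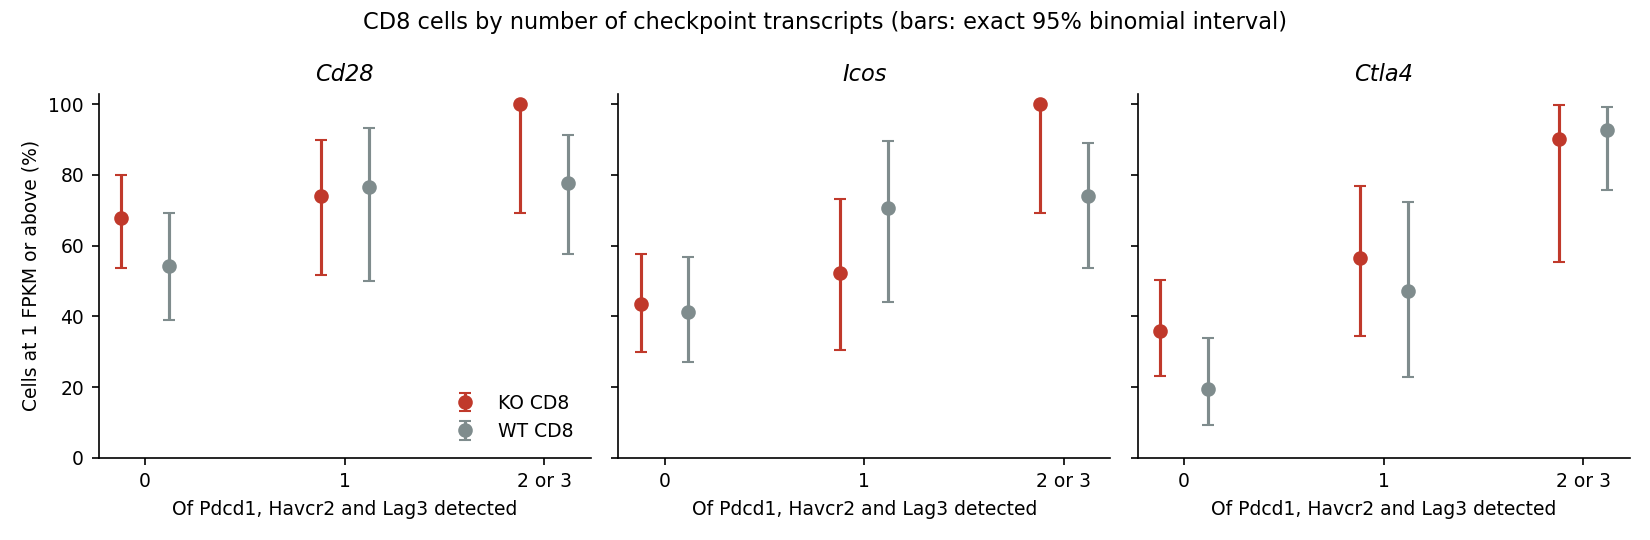
Share of CD8 cells (%) with Cd28, Icos and Ctla4 at 1 FPKM or above, by how many of Pdcd1, Havcr2 and Lag3 the cell held (horizontal axis; 53, 23 and 10 KO cells in red, 46, 17 and 27 WT cells in grey); bars are exact 95% binomial intervals for counting error only. Ctla4 steps up to 90% in KO and 92.6% in WT cells, further than Cd28 and Icos do in WT cells.

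CD8 cells were also grouped by Tcf7, which encodes TCF-1, and Il7r, the IL-7 receptor chain, both marks of naive and memory-like cells. Ctla4 was found in 44.7% of KO (21 of 47) and 31.4% of WT cells (11 of 35) with both, and in 58.8% of KO (10 of 17) and 68.97% of WT cells (20 of 29) with neither. In WT the intervals of the 2 classes were 16.9% to 49.3% and 49.2% to 84.7%. WT cells with both had a median of 2050 genes, against 3046 in WT cells with neither. In KO the medians were 1988 and 1990 genes. The part of depth in these shares was not tested. Icos was found in 44.7% of KO and 45.7% of WT cells with both, and in 82.4% of KO and 58.6% of WT cells with neither. Cd28 was found in 74.5% of KO and 51.4% of WT cells with both, and in 70.6% of KO and 65.5% of WT cells with neither. In cells with both, the intervals of Cd28 were 59.7% to 86.1% in KO and 33.99% to 68.6% in WT and overlapped. In cells with 1 of them, Cd28 was found in 72.7% of KO (16 of 22) and 84.6% of WT cells (22 of 26).

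Among Foxp3- CD4 cells, those with Ctla4 resembled regulatory cells only in part. Il2ra or Ikzf2 was found in 6 of 22 KO and 4 of 18 WT cells with Ctla4, and in 3 of 32 KO and 1 of 21 WT cells without it. Pdcd1 was found in 50% of KO and 50% of WT cells with Ctla4, and in 12.5% of KO and 19.05% of WT cells without it. Tnfrsf4, which encodes OX40, was found in 63.6% of KO and 33.3% of WT cells with Ctla4, and in 21.9% of KO and 14.3% of WT cells without it. Tnfrsf18 was found in 68.2% of KO and 44.4% of WT cells with Ctla4, and in 43.75% of KO and 42.9% of WT cells without it. Cd40lg, the CD40 ligand of helper cells, leaned the other way: 40.9% of KO and 22.2% of WT cells with Ctla4, and 53.1% of KO and 33.3% of WT cells without it. The intervals of Pdcd1, Tnfrsf18 and Cd40lg overlapped in each pool, and those of Tnfrsf4 overlapped in WT. In KO those of Tnfrsf4 were 40.7% to 82.8% and 9.28% to 39.97%. Il2 was found in 4 of 22 KO cells with Ctla4 and 0 of 32 without it, and in 0 of 18 and 0 of 21 WT cells. KO cells with Ctla4 had a median of 2005 genes, against 1601.5 without it, while in WT the medians were 1513 and 1547.

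The genes most like each member were ranked by Pearson's r of log2(FPKM + 1) over cells, a description in which cells share pools and depth. Over the 89 KO and 85 WT CD4 cells and 3113 genes found in at least 20% of them, the genes most like Ctla4 were Foxp3 (r = 0.67), Capg (0.55), Il2ra (0.54), Tnfrsf4 (0.53) and Tnfrsf9 (0.53), which encodes 4-1BB. Those most like Icos were the chemokine receptor gene Ccr2 (0.44), Capg (0.42), Glrx (0.41), Tnfrsf4 (0.41) and Dgat1 (0.38), with Ctla4 at the rank 10 (0.36). Those most like Cd28 were Sla2 (0.29), Cxcr3 (0.29), Lrrfip1 (0.28) and Gpsm3 (0.28), and its r with Ctla4 was 0.005. Within the classes the link of Ctla4 and Foxp3 was uneven, with r = -0.07 in 35 KO and 0.51 in 46 WT Foxp3+ cells. The WT value includes the 6 cells without Ctla4.

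Over the 86 KO and 90 WT CD8 cells and 3648 genes, the members were among each other's nearest genes. The genes most like Ctla4 were Pdcd1 (r = 0.63), Icos (0.52), Nrp1 (0.50), Lag3 (0.47) and Capg (0.45), with Cd28 at the rank 13 (0.41). In KO and WT cells apart, these were 0.59 and 0.68 for Pdcd1, 0.64 and 0.38 for Icos, and 0.51 and 0.49 for Nrp1. They were 0.28 and 0.64 for Lag3, and 0.40 and 0.50 for Capg. The KO values include the CD8 cells with Foxp3. Those most like Icos were Ctla4, Capg (0.42), Cd28 (0.42), the chemokine receptor gene Cxcr6 (0.41) and Pdcd1 (0.41). Those most like Cd28 were Icos and Ctla4, followed at a distance by the gene listed as 6-Mar, whose symbol has the form of a date (0.29), Atxn7l1 (0.29) and Cblb (0.28), a ubiquitin ligase that restrains CD28 signals. In CD8 cells the number of detected genes had r = 0.40 with Ctla4, 0.18 with Icos and -0.02 with Cd28.

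Transcripts of the ligands were found in few of these T cells. Cd80 was found in 2.17% to 14.3% of the 6 classes, Cd86 in 2.56% to 11.1% and Icosl in 3.33% to 8.14%. The B7 relatives Cd276 and Vtcn1 were each found in 1 of 46 WT Foxp3+ cells and at 1 FPKM or above in none of the other classes, where counts of 0 allow shares of up to 3.33% to 8.57%. Of this family, the ligands of PD-1 were the ones measured. Pdcd1lg2, which encodes PD-L2, was found in 37.1% of KO and 28.3% of WT Foxp3+ cells and in 3.70% of KO and 7.69% of WT Foxp3- cells, a difference of 2.35 in KO and 1.18 in WT. Cd274, which encodes PD-L1, was found in 36.05% of KO and 55.6% of WT CD8 cells and differed by -1.02 there. It was found in 51.4% of KO Foxp3+ and 27.8% of KO Foxp3- cells, a difference of 1.13, and in 45.7% of WT Foxp3+ and 35.9% of WT Foxp3- cells, a difference of 0.094. Of all measured genes, 13.3% were lower by 1 or more in KO than in WT CD8 cells. Between Foxp3+ and Foxp3- cells, 30% were higher in KO and 23.9% in WT.

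Of 19 genes of CD28 signalling, those measured in at least 20% of either class were counted. Between KO and WT CD8 cells, 0 of 15 were higher by 1 or more and 1 lower, Bcl10 (-1.04), an adaptor on the way to NF-kB. Of all measured genes 0.555% were higher and 13.3% lower, so 1 of 15 is below that share. The median was -0.24, against -0.40 for all genes. Between KO and WT Foxp3+ cells, 2 of 15 were higher and 0 lower, with a median of 0.56 against 0.42, and 2 of 15 is below the 21.5% of all measured genes. Between KO and WT Foxp3- cells, 2 of 14 were higher and 0 lower, with a median of 0.76 against 0.21, and 2 of 14 is close to the 13.5% of all measured genes. Malt1 was higher by 1.12 in KO Foxp3+ and Bcl10 by 1.34 in KO Foxp3- cells.

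Between Foxp3+ and Foxp3- cells, 4 of 17 CD28 signalling genes were higher by 1 or more and 2 lower in KO, and 4 of 14 higher and 2 lower in WT, with medians of -0.07 and 0.51 against 0.60 and 0.42 for all genes. Of all measured genes, 30% were higher and 2.35% lower in KO, and 23.9% higher and 4.81% lower in WT, so the higher counts are near those shares and the lower counts above them. The same 2 genes were the lower ones in both pools. Prkcq, which encodes protein kinase C theta, a kinase drawn to the CD28 tail at the synapse, was lower in Foxp3+ cells by -1.77 in KO (22.9% of Foxp3+ and 46.3% of Foxp3- cells) and by -1.58 in WT (26.1% and 53.8%). Pik3cd, the catalytic subunit of phosphatidylinositol 3-kinase delta, was lower by -1.02 in KO and -1.29 in WT. The adaptor Lcp2, which encodes SLP-76, was higher by 1.67 in KO and 1.61 in WT, and Flna, a filamin bound by the CD28 tail, by 1.10 and 1.18. Between Foxp3- CD4 and CD8 cells, 0 of 14 were higher in KO or WT, and 4 of 14 in KO and 7 of 14 in WT were lower, among them Lck, the kinase of the T cell receptor (-1.55 in KO and -2.74 in WT). Of all measured genes, 3.86% were higher and 8.45% lower in KO, and 0.875% higher and 35.2% lower in WT.

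Of 11 genes that carry CTLA-4 to and from the surface or encode phosphatases tied to it, 3 of 9 measured in KO and 5 of 7 in WT were higher by 1 or more in Foxp3+ than in Foxp3- cells and 0 lower. That compares with 30% and 23.9% of all measured genes, so the KO count is near the background. The medians were 0.75 and 1.14, against 0.60 and 0.42 for all genes. Rab11a, a small GTPase of recycling endosomes, was higher by 2.54 in KO (54.3% of Foxp3+ and 20.4% of Foxp3- cells) and by 3.003 in WT (60.9% and 23.1%). Ap1m1, a subunit of the clathrin adaptor AP-1, was higher by 1.07 in KO and 1.14 in WT. In WT the list also held Ap2m1 (1.90), the AP-2 subunit that binds the CTLA-4 tail, Arf1 (1.27) and Def6 (1.03), and in KO Ppp2ca (1.008), a phosphatase subunit.

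The same list was read between KO and WT CD4 cells. In Foxp3+ cells 3 of 9 were higher by 1 or more in KO and 0 lower (median 0.61 against 0.42), beside 21.5% of all measured genes. In Foxp3- cells 5 of 6 were higher and 0 lower (median 1.43 against 0.21), beside 13.5%. Trat1, which encodes TRIM, an adaptor that brings CTLA-4 to the surface, was higher by 2.30 in KO Foxp3+ cells (34.3% of KO and 4.35% of WT cells) and by 1.85 in KO Foxp3- cells (29.6% and 7.69%). Def6, which acts with LRBA and RAB11 in recycling CTLA-4, was higher by 1.27 and 1.70, and Ap1m1 by 1.34 and 1.41. Ap2m1 (1.45) and Arf1 (1.24) were higher in KO Foxp3- cells alone by this size. In CD8 cells 0 of 6 were higher in KO and 1 was lower, Arf1 (-1.08), beside 0.555% higher and 13.3% lower of all measured genes. The difference between the sorts was not tested.

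Of Rc3h1 and Rc3h2, whose Roquin proteins restrain Icos mRNA, and Tbk1, a kinase bound by the ICOS tail, 1 or 2 were measured in each comparison and 0 differed by 1 or more. Of 6 follicular helper genes linked to ICOS, 2 or 3 were measured in each comparison. Maf, a transcription factor gene induced by ICOS, was higher by 2.04 in WT Foxp3+ than in WT Foxp3- cells (56.5% and 15.4%). It was also higher by 1.19 in KO Foxp3- CD4 than in KO CD8 cells. In these comparisons Slamf6 went the other way, by -1.93 (10.9% and 33.3%) and -1.55 (20.4% and 44.2%). Beside them, 23.9% of all measured genes were higher by 1 or more and 4.81% lower in the former, and 3.86% and 8.45% in the latter. Sh2d1a, which encodes SAP, was lower by -1.08 in KO Foxp3+ than in KO Foxp3- cells. Of all measured genes there, 2.35% were lower by 1 or more. Sh2d1a was also lower by -1.41 in WT Foxp3- CD4 than in WT CD8 cells. There 35.2% of all measured genes were lower by 1 or more, with a median of -0.73. Slamf6 was lower by -1.13 and Sh2d1a higher by 1.42 in KO than in WT Foxp3- cells, beside 3.15% lower and 13.5% higher. In Foxp3+ cells Slamf6 was higher by 1.26 in KO than in WT (31.4% and 10.9%), beside 21.5% of all measured genes. Cxcr5, Bcl6 and Il21, which define follicular helper cells, were found in few Foxp3- cells: Cxcr5 in 1 of 54 KO and 1 of 39 WT cells, Bcl6 in 1 and 4, and Il21 in 0 and 1.

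Among genes known to be raised by CD28 co-stimulation, Il2ra and Bcl2l1, which encodes BCL-XL, were higher in Foxp3+ than in Foxp3- cells, by 4.32 and 1.91 in KO and by 3.97 and 2.22 in WT. Il2ra is itself a marker of regulatory T cells. Of 4 measured genes of this list, 2 were higher by 1 or more and 1 lower in each pool. Among all measured genes, 30% were higher and 2.35% lower in KO, and 23.9% and 4.81% in WT. Cd40lg was the lower one in Foxp3+ cells, by -2.59 in KO and -1.67 in WT. It was higher in KO than in WT Foxp3- cells by 1.28 (48.1% and 28.2%), beside 13.5% of all measured genes higher by 1 or more. Of the 5 NFAT and NF-kB factors, all were measured. Nfatc1 was lower by -1.06 in KO CD8 cells, and Rel (1.21) and Nfkb1 (1.54) were higher in KO than in WT Foxp3+ cells. Among all measured genes, 13.3% were lower by 1 or more in KO CD8 and 21.5% higher in KO Foxp3+ cells. Between Foxp3+ and Foxp3- cells, Nfkb1 was higher by 1.67 in KO (40% and 20.4%) and Rela lower by -1.03 in WT (28.3% and 38.5%).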

How the data were processed

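Single T cells were profiled by Smart-seq2 with bead purification of RNA, 21 cycles of cDNA amplification and Nextera XT libraries, per the labels' protocols. The authors deposited gene-level FPKM with TMM scaling across cells. The submitters' processing notes list Bowtie, RSEM and the build mm10, and versions are not given in the sources used here. The table held 23366 genes in 375 columns. Of these, 371 were single cells and 4 columns matched no sample and were not used. 4 entries with repeated symbols were dropped, leaving 23362 genes. 0 pairs of cells were identical.

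Counts were not used here. Depth was estimated from the step that 1 read makes among 3808 genes with 1 annotated transcript over 500 nucleotides, at values under 8 FPKM. Cells were kept where no fewer than 1000 genes reached 1 FPKM. Differences are of mean log2(FPKM + 1), with a pseudocount of 1, over cells. A gene was measured where at least 20% of either class had 1 FPKM or above. Each group was taken as 1 pool, so no p-value was computed and no doublet caller was run. Named genes were the 3 members, 58 genes of 7 pathway lists (values for those past 1 on the log2 scale) and the 5 genes most correlated with each member per sort, without receptor gene segments and predicted genes. Some genes that this rule names are not reported here. Genes outside these lists, such as those that grouped cells by state, were chosen after their values were seen. The members and lists were chosen with earlier results of these data known. The difference of means was checked by adding known shifts to WT CD8 cells split at random, which checks the arithmetic alone. Python 3.11.15, numpy 2.4.6, pandas 2.3.3 and scipy 1.17.1 were used.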

Additional observations from a re-analysis of the deposited data

Results flagged for a closer look

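The difference of Ctla4 between KO and WT cells had opposite signs in the 2 Foxp3 classes of the CD4 sort: 1.64 in Foxp3+ cells (35 KO and 46 WT) and -0.57 in Foxp3- cells (54 KO and 39 WT). With each genotype taken as 1 pool, the difference between the classes was not tested. The Foxp3- value kept its sign in 10 of 11 alternatives, with 1.46 among cells with at least 2000 genes. Without cells that carried other cells' markers it was -0.021. The shares of Foxp3- cells with Ctla4, 40.7% in KO and 46.2% in WT, had overlapping intervals. The Foxp3+ value kept its sign in all 9 alternatives, from 0.42 to 2.12. Among Foxp3+ cells with Ctla4, KO and WT cells differed by 0.32. Median detected genes were 2152 in KO and 1884 in WT Foxp3+ cells, and 1747 in KO and 1547 in WT Foxp3- cells, so KO cells had more genes in both classes.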

How the results depend on the processing

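No difference past 1 turned its sign under any alternative. Among alternative shares of cells, 7 left the interval of the share as reported. With cells of at least 2000 genes, the shares were 93.75% for Cd28 and 68.75% for Ctla4 in KO Foxp3- cells, 68.4% for Icos in KO CD8, 100% for Icos in KO Foxp3+ and 57.6% for Ctla4 in WT CD8 cells. Without cells holding other cells' markers, they were 78.9% for Cd28 and 89.5% for Icos in WT Foxp3- cells. Among alternative differences, 54 moved by more than 1.5-fold, and those between KO and WT are these. With pseudocounts, Cd28 gave 1.82 in all CD4 and 2.14 in Foxp3- cells at 0.1, and 0.80 in Foxp3- cells at 10. As log2 of mean FPKM, Cd28 gave 0.40 in all CD4, 0.046 in Foxp3+ and 0.51 in Foxp3- cells, Icos 0.52, 0.51 and 1.06 in the same order, and Ctla4 0.42 in Foxp3+ cells. With groups weighted to match in detected genes, Cd28 gave 0.048 and Icos 0.14 in Foxp3+ cells, and Ctla4 gave 1.28 in CD8 and -1.14 in all CD4 cells. Without cells holding other cells' markers, Cd28 gave 1.45 in Foxp3+ and 0.035 in Foxp3- cells, Icos 0.67 in Foxp3- and Ctla4 0.34 in all CD4 cells. With at least 2000 genes, Cd28 gave 3.28 in Foxp3- cells, and Ctla4 gave 0.65 in Foxp3+ and 1.46 in Foxp3- cells. The causes were not tested. With a pseudocount of 10, 1.81% of measured genes lay past 1 in either direction between KO and WT CD8 cells, against 13.8% as reported, 2.33% against 10.9% in all CD4, 6.64% against 23.8% in Foxp3+ and 3.91% against 16.7% in Foxp3- cells. Between Foxp3+ and Foxp3- cells these were 11.1% against 32.4% in KO and 10.1% against 28.7% in WT, and between Foxp3- CD4 and CD8 cells 2.64% against 12.3% in KO and 10.5% against 36.1% in WT. The alternatives without Foxp3+ CD8 cells and without the cell with haemoglobin transcripts were chosen after seeing the data. No paired analysis was possible because each group was taken as 1 pool and the groups share fewer than 2 replicate numbers. Over all kept cells, 1 read was worth 1.05 FPKM of Ctla4 but only 0.467 of Cd28 and 0.626 of Icos. Detection at 1 FPKM thus took unequal numbers of reads for the members. A gene not found in a cell may still be expressed.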
